A study of Mus musculus with 6 samples.

Results

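The collagen genes of the mouse ovary were taken as every row of the 6 deposited expression tables whose symbol is Col, a number, the letter a and a number. This rule gave 44 genes of 46078, the same 44 in each table, and left out relatives in name only such as Col4a3bp. They were placed in 3 classes from general knowledge of the family: 11 fibrillar collagens, 6 basement membrane collagens (the type IV chains) and 27 others. The study profiled RNA of ovaries from C57BL/6 mice aged 8 to 9 weeks in 2 groups of 3 libraries, one labelled control and one labelled cyclophosphamide (CTX). Cyclophosphamide is a cytotoxic drug that alkylates DNA and depletes ovarian follicles. The sources used here give no dose, route, interval after treatment or cycle stage, and name no genetic alteration in either group. Whether libraries of a group stem from separate mice is not stated, and p-values then reflect only the spread among these samples, which may be technical.

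Collagens are secreted proteins built of 3 chains wound into a triple helix. Fibrillar collagens such as types I, III and V pack into the tensile fibres of the ovarian stroma, the theca layer and the capsule under the surface. Type IV chains form the sheet-like network of basement membranes, which in the ovary surround follicles and vessels. The remaining types coat fibrils, link them to cells, form microfibrils or span the cell membrane. Follicle growth, ovulation and the formation of the corpus luteum, the hormone-producing body left after ovulation, all remodel this matrix.

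Values were RPKM (reads scaled by exon length and by library size), a level per length of merged exons. The depth estimated from the steps of low values was 15800000 to 16800000 reads for control and 17050000 to 22150000 reads for CTX. An RPKM of 1 therefore stood for 81.2 to 114 reads in Col20a1, a member with 5142 exonic bases. The libraries of a group were not alike: summed over 10 luteal markers, all of them present in every library, RPKM were 8141, 9183 and 4202 in control libraries 1 to 3 and 10481, 3320.3 and 3167 in CTX libraries 1 to 3. Summed RPKM of 10 granulosa cell markers were 1670, 1531 and 3701 in control libraries 1 to 3 and 1004, 3278 and 3254 in CTX libraries 1 to 3. Controls 1 and 2 and CTX 1 were thus high in summed luteal and low in summed granulosa markers, and control 3 and CTX 2 and 3 the reverse. Inha and Gja1 had the highest levels of the granulosa list, and not all of its members followed the sum. Inhbb was lower in CTX 2 and 3 than in every control, and Foxl2 was nearly level over the controls. In whole-organ RNA, fewer cells of a type and less RNA per cell cannot be told apart.

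The 44 members together took 0.510 to 0.578% of all exon-length-weighted RPKM in controls and 0.479 to 0.612% after CTX. Mean levels over the 6 libraries reached 100 RPKM in 3 members (Col4a1, Col6a1 and Col3a1) and 10 RPKM in 16. Col4a1, Col6a1, Col3a1 and Col4a2 together made up 49.2 to 63.6% of the summed collagen RPKM of a library. Order by level depends on the length used: with the longest coding transcript in place of merged exons, an alternative chosen after seeing the data, Col1a2 also passed 100, so that 4 members reached 100 and 18 reached 10. A filter (RPKM 1 or more in 3 or more libraries) left 32 members for testing and set 12 aside.

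**Figure D1:**
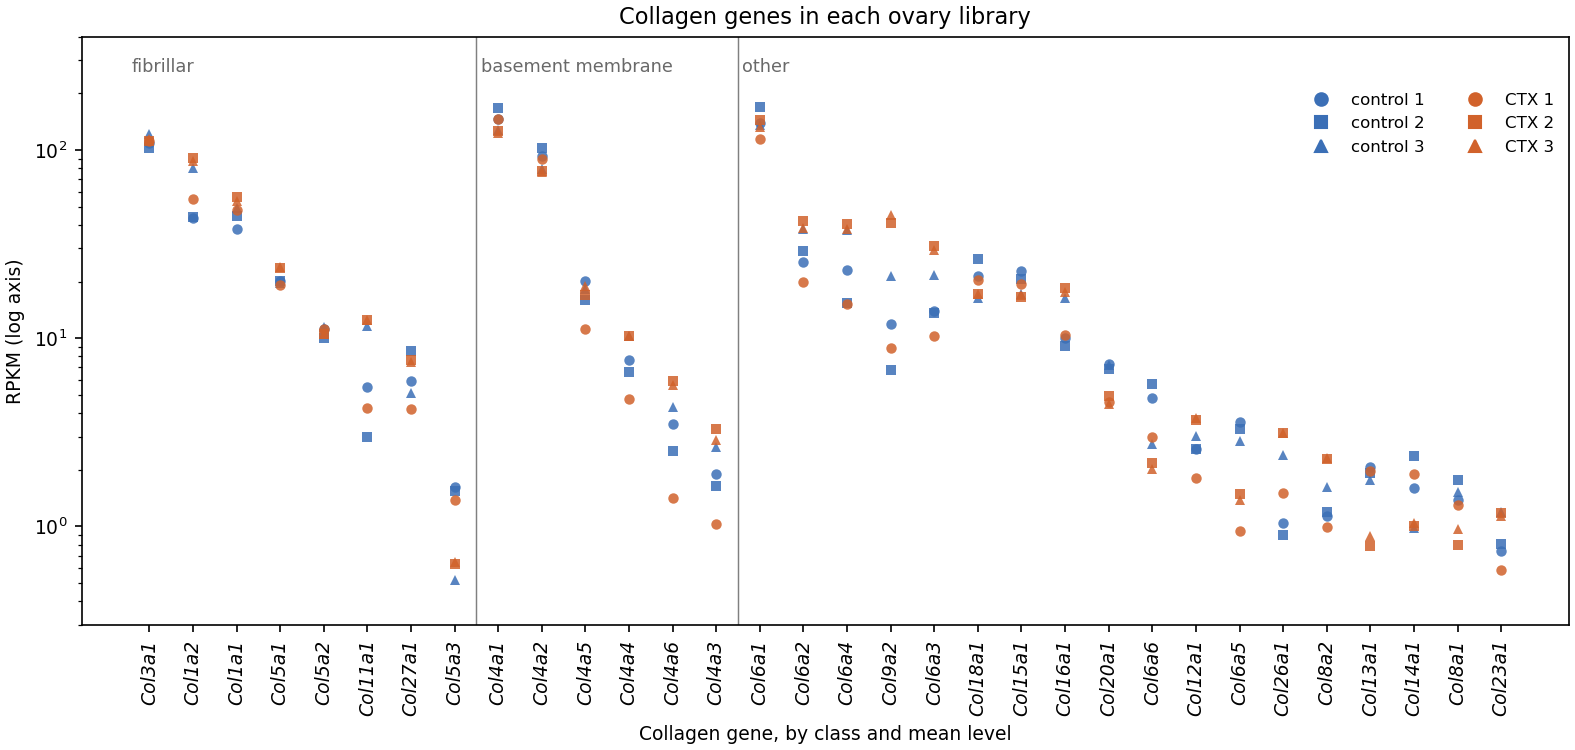
RPKM of the 32 tested collagen genes (log axis) in each of the 6 libraries, grouped by class and ordered by mean level. Blue marks are control and orange marks CTX, and the marker shape gives the library. Col4a1, Col6a1 and Col3a1 stand above 100 RPKM, and in genes such as Col1a2, Col11a1 and Col6a3 the marks of 1 colour split into high and low libraries.

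Summed by class, the groups overlapped in each of the 3 classes. Fibrillar collagens summed to 237, 236 and 301 in control libraries 1 to 3 and 256, 314 and 312 in CTX libraries 1 to 3 (258 ± 37.2 in control and 294 ± 32.95 in CTX, where ± is the SD over 3 libraries, n = 3 per group). CTX 1 lay between the controls, while CTX 2 and 3 lay above them. Basement membrane collagens summed to 273, 297 and 243 in control libraries 1 to 3 and 255, 241 and 238 in CTX libraries 1 to 3, with means of 271 ± 26.9 in control and 244 ± 9.03 in CTX. Here controls 1 and 2 were highest, and CTX 1 lay above control 3. The other collagens summed to 297, 321 and 333 in control libraries 1 to 3 and 239, 375 and 359.99 in CTX libraries 1 to 3, with means of 317 ± 18.4 in control and 325 ± 74.7 in CTX. CTX 1 was lowest and CTX 2 highest, so the CTX libraries enclosed the controls. The summed level in CTX was 1.14 times that in control for fibrillar, 0.903 times for basement membrane and 1.02 times for other collagens. As a share of all collagen RPKM, fibrillar genes held 29.4, 27.6 and 34.3% in control libraries 1 to 3 and 34.2, 33.8 and 34.3% in CTX libraries 1 to 3. Control 3 had the share of the CTX libraries, and controls 1 and 2 were lower. Such sums over chosen members were not tested. Class sums and shares also depend on the length used, and they were not recomputed with the longest coding transcript. With that length the mean RPKM of Col3a1 was 197 in place of 112, and that of Col1a2 155 in place of 66.8. Col4a1 and Col6a1 moved less, to 158 and 149 from 140 and 139.

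**Figure D2:**
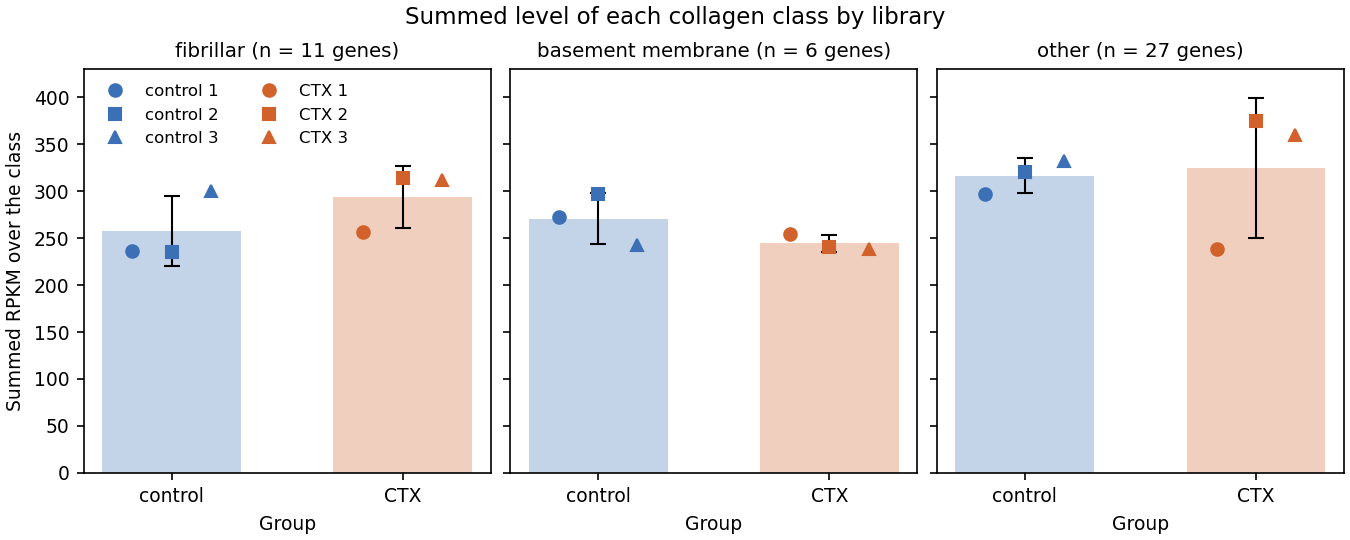
Summed RPKM of the fibrillar (11 genes), basement membrane (6) and other collagens (27) in each library. Bars are group means, whiskers are SD (n = 3) and marks are libraries. Control and CTX marks overlap in height in each panel, and CTX 1 sits lowest in the panel of the other collagens.

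No collagen gene passed the test of CTX against control. The test was a limma model of log2(RPKM + 1) over the 14535 genes left by the same filter, with calls at a Benjamini-Hochberg adjusted p under 0.05. It called 0 of 32 collagens and 0% of all genes tested. The smallest adjusted p-value of a collagen in limma was 0.959 (Col6a5), and of any gene 0.411. At an unadjusted limma p under 0.05 there were 3 collagens (3.45% of all genes), 0 of them higher in CTX (1.16%) and 3 lower (2.29%). Fitted differences were positive in 16 collagens and negative in 16, where 48.8% of all genes tested were positive. The median of the collagens was 0.01 on the log2 scale (quartiles −0.19 and 0.26), and −0.01 over all genes (quartiles −0.13 and 0.12). By class, 5 of 8 tested fibrillar genes were positive (median 0.08), 2 of 6 basement membrane genes (median −0.07) and 9 of 18 others (median −0.07).

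In 24 of 32 collagens the difference of group means was smaller than the larger group SD on the log2 scale, where 81.7% of all genes tested were, so this count says nothing particular to collagens. CTX 1 was the lowest library in 14 of the 32 and the highest in 0, where it was lowest in 42.0% and highest in 24.0% of all genes. All CTX libraries lay above all controls in 0 collagens (3.32% of all genes) and below them in 3 (5.5% of all genes), namely Col20a1, Col6a5 and Col8a1. Without CTX 1, these counts became 15 above and 8 below, where 22.8% and 17% of all genes were. Without control 3 they were 5 and 8, with 11.9% and 12.7% of all genes. Without CTX 1 limma called 0 collagens and 0.0344% of all genes, without control 3 it called none, and 13 of 32 collagens had an unadjusted limma p under 0.05 without CTX 1 (16.6% of all genes).

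**Figure D3:**
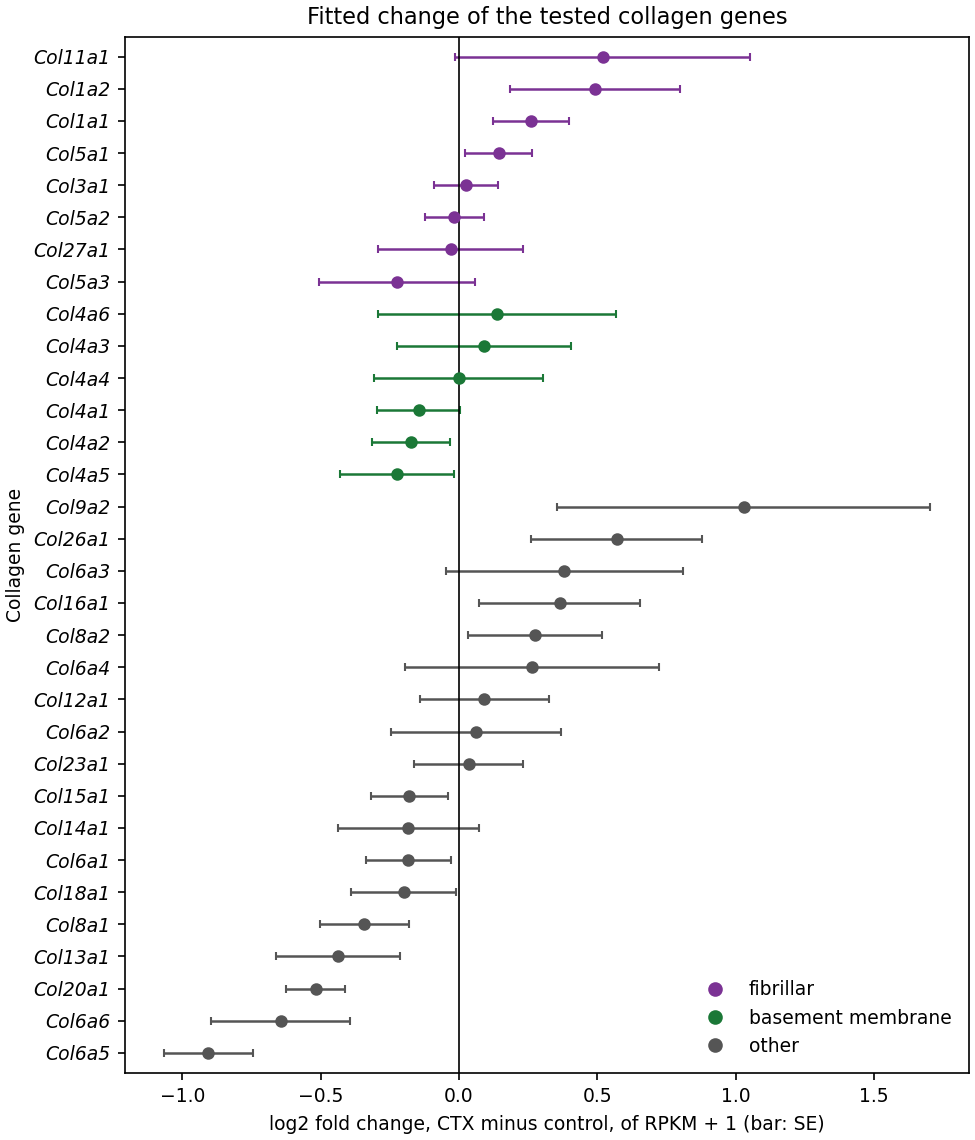
Fitted log2 fold change of RPKM + 1, CTX minus control, for the 32 tested collagens, with the standard error as a bar and the class as colour. The values run from −0.91 (Col6a5) to 1.03 (Col9a2), and the bars of the type IV chains lie near or across 0.

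Fibrillar collagens of types I, III and V form the bulk of stromal fibres. Col3a1, which encodes the chain of type III collagen, the fine reticular fibre of soft organs, had 109, 103 and 121 RPKM in control libraries 1 to 3 and 112, 111 and 115 in CTX libraries 1 to 3. These values were even across all libraries, and the fitted difference was 0.02 ± 0.12 (log2, ± SE). Col1a1, the alpha 1 chain of type I collagen, had 38.1, 44.4 and 49.2 RPKM in control libraries 1 to 3 and 47.9, 56.6 and 53.3 in CTX libraries 1 to 3. Control 3 lay just above CTX 1, so the groups overlapped in this pair of libraries alone (log2 fold change 0.26 ± 0.14). After trimmed-mean scaling, it was the single collagen whose CTX libraries all lay above all controls. Col1a2, the partner chain, had 43.3, 44.2 and 80.3 RPKM in control libraries 1 to 3 and 54.8, 90.2 and 87.96 in CTX libraries 1 to 3. Control 3 and CTX 2 and 3 were highest, as in Col1a1 but by a wider margin, and its log2 fold change was 0.49 ± 0.31.

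The 2 chains of type I collagen therefore did not keep 1 ratio. Col1a1 divided by Col1a2 was 0.880, 1.005 and 0.612 in control libraries 1 to 3 and 0.874, 0.627 and 0.606 in CTX libraries 1 to 3, a spread of 1.66 times from the lowest library to the highest. The level of this ratio depends on gene length, since RPKM divided Col1a2 reads by 12426 merged exonic bases while its longest coding transcript has 5348. Scaled to the longest coding transcripts, the ratio ran from 0.289 to 0.479. In the protein, 2 alpha 1 chains join 1 alpha 2 chain.

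Type V and type XI chains sit inside fibrils and set their diameter. Col5a1 had 20.1, 20.1 and 19.7 RPKM in control libraries 1 to 3 and 19.2, 23.8 and 23.9 in CTX libraries 1 to 3, with CTX 2 and 3 high and CTX 1 low (log2 fold change 0.14 ± 0.12). Col5a2 varied least among them, at 10.01 to 11.5 RPKM over the 6 libraries (−0.02 ± 0.11). Col5a3 had 1.63, 1.55 and 0.52 RPKM in control libraries 1 to 3 and 1.38, 0.63 and 0.65 in CTX libraries 1 to 3. Its high libraries were controls 1 and 2 and CTX 1, so it was split in the opposite way to Col11a1. Col11a1, a type XI chain best known from cartilage, had 5.5, 3 and 11.6 RPKM in control libraries 1 to 3 and 4.27, 12.5 and 12.6 in CTX libraries 1 to 3 (log2 fold change 0.52 ± 0.53). Col27a1, a fibrillar collagen of more distant relation, had 5.95, 8.53 and 5.12 RPKM in control libraries 1 to 3 and 4.2, 7.66 and 7.46 in CTX libraries 1 to 3, with controls and CTX libraries interleaved (−0.03 ± 0.26).

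The 6 type IV chains are encoded by 3 pairs of genes, each pair on 1 chromosome and pointing away from each other from neighbouring starts. The alpha 1 and alpha 2 chains form the network found in nearly all basement membranes, and the alpha 3 to alpha 6 chains form networks of restricted places such as glomeruli. In the GENCODE M21 annotation of mm10 (GRCm38), Col4a1 lies on chromosome 8 (11198423 to 11312826, minus strand) and Col4a2 on chromosome 8 (11312805 to 11449287, plus strand), and their first exons overlap by 22 bases. Col4a4 lies on chromosome 1 (82448423 to 82586849, minus strand) and Col4a3 on chromosome 1 (82586921 to 82722059, plus strand), with 71 bases between the annotated starts. Col4a6 lies on chromosome X (141165403 to 141474076, minus strand) and Col4a5 on chromosome X (141475385 to 141689234, plus strand), with 1308 bases between them. The stretches at these starts are shown because the pairs differed in how closely their members followed each other. They were read from RefSeq promoter windows of GRCm38.p6, outside annotated exons except for the first. Capitals mark a match to GGGCGG (the GC box, bound by Sp1-like factors) or CCAAT (the CCAAT box, bound by NF-Y) on either strand.
Col4a1 and Col4a2, chr8:11312801-11312830, plus strand, the overlap with 4 bases on each side: cggcagtgcgcGGGCGGcgtctccaagggg
Col4a3 and Col4a4, chr1:82586850-82586920, plus strand, between the starts: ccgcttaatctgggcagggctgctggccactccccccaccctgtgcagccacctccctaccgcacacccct
Col4a5, chrX:141475169-141475384, plus strand, upstream of its start: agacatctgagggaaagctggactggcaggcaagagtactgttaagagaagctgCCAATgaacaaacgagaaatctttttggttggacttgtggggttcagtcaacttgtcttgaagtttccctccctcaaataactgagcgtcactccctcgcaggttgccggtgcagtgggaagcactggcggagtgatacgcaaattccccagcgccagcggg
Col4a6, chrX:141474077-141474326, minus strand, upstream of its start: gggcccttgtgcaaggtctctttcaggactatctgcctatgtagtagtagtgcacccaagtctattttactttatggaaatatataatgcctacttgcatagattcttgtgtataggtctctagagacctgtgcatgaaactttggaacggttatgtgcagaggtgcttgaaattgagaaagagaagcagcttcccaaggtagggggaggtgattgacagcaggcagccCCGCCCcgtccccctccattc

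Col4a1 and Col4a2 kept nearly 1 ratio in all 6 libraries. Col4a1, which encodes the alpha 1 chain, had 146, 167 and 128 RPKM in control libraries 1 to 3 and 147, 127 and 124 in CTX libraries 1 to 3. Col4a2, which encodes the alpha 2 chain, had 93.04, 103 and 79.7 RPKM in control libraries 1 to 3 and 89.4, 77.4 and 76.5 in CTX libraries 1 to 3. Both were highest in control 2 and lowest in CTX 3, and the groups overlapped (log2 fold changes −0.15 ± 0.15 and −0.17 ± 0.14). Col4a1 divided by Col4a2 was 1.57, 1.62 and 1.60 in control libraries 1 to 3 and 1.64, 1.64 and 1.62 in CTX libraries 1 to 3. The highest ratio was 1.05 times the lowest, the narrowest of the 6 chain pairs set side by side here.

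The pairs of minor chains followed each other less closely. Col4a4 had 7.64, 6.6 and 10.2 RPKM in control libraries 1 to 3 and 4.76, 10.3 and 10.2 in CTX libraries 1 to 3, and Col4a3 had 1.91, 1.65 and 2.65 RPKM in control libraries 1 to 3 and 1.03, 3.31 and 2.88 in CTX libraries 1 to 3. Both were lowest in CTX 1 and highest in CTX 2, and their log2 fold changes were −0.002 ± 0.30 and 0.09 ± 0.31. Col4a4 divided by Col4a3 was 4, 4 and 3.86 in control libraries 1 to 3 and 4.62, 3.12 and 3.56 in CTX libraries 1 to 3. That ratio was level in the controls and spread over 1.48 times from CTX 2 to CTX 1.

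Col4a5 and Col4a6, with the widest gap between starts, spread most. Col4a5 had 20.2, 16.03 and 18.4 RPKM in control libraries 1 to 3 and 11.2, 17.01 and 18.9 in CTX libraries 1 to 3 and Col4a6 3.51, 2.51 and 4.29 RPKM in control libraries 1 to 3 and 1.42, 5.91 and 5.64 in CTX libraries 1 to 3. CTX 1 was lowest in both, but the highest library was control 1 for Col4a5 and CTX 2 for Col4a6 (log2 fold changes −0.22 ± 0.21 and 0.14 ± 0.43). Col4a5 divided by Col4a6 was 5.76, 6.39 and 4.28 in control libraries 1 to 3 and 7.91, 2.88 and 3.35 in CTX libraries 1 to 3, a spread of 2.75 times. The 4 minor chains summed to 33.3, 26.8 and 35.5 in control libraries 1 to 3 and 18.4, 36.6 and 37.7 in CTX libraries 1 to 3. CTX 1 was low and the other 5 libraries were within 26.8 to 37.7. No test was made of these ratios, and 3 pairs cannot show whether distance between starts matters.

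**Figure D4:**
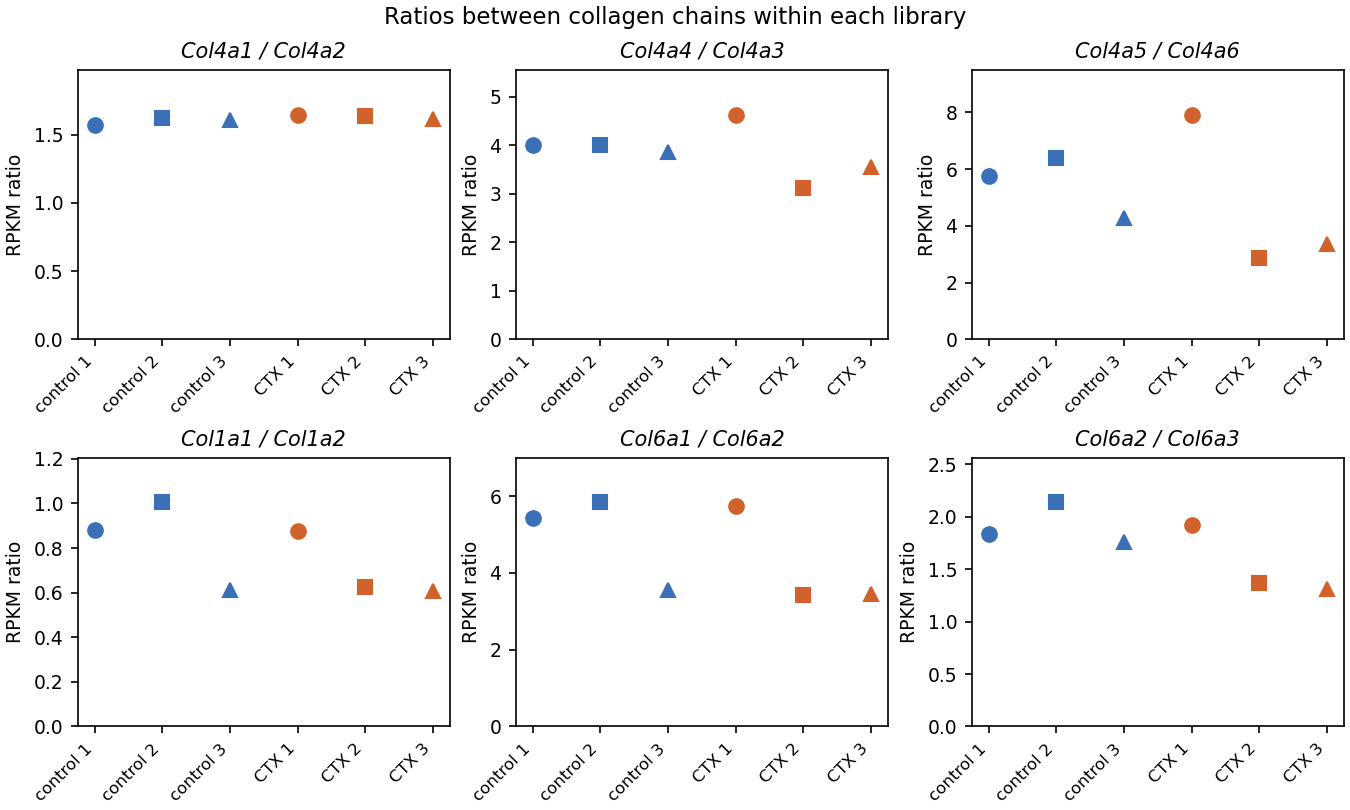
RPKM ratio of 6 pairs of collagen chains in each library (linear axes from 0). The Col4a1 to Col4a2 ratio is flat, from 1.57 to 1.64, while Col4a5 to Col4a6 runs from 2.88 to 7.91. The Col1a1 to Col1a2 and Col6a1 to Col6a2 ratios are low in control 3 and CTX 2 and 3.

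Type VI collagen forms beaded microfibrils next to basement membranes, from alpha 1, alpha 2 and another chain that can be alpha 3 or one of alpha 4 to alpha 6. Col6a1 had 139, 169.9 and 136 RPKM in control libraries 1 to 3 and 114, 144 and 133 in CTX libraries 1 to 3. Control 2 was highest and CTX 1 lowest, and the groups overlapped (log2 fold change −0.18 ± 0.15). Col6a2, its obligate partner, had 25.6, 29.1 and 38.2 RPKM in control libraries 1 to 3 and 19.8, 42.2 and 38.6 in CTX libraries 1 to 3, and Col6a3 had 13.97, 13.6 and 21.7 RPKM in control libraries 1 to 3 and 10.3, 30.8 and 29.4 in CTX libraries 1 to 3. These chains were low in controls 1 and 2 and CTX 1 and high in the other 3 libraries, and their log2 fold changes were 0.06 ± 0.31 and 0.38 ± 0.43. Col6a1 divided by Col6a2 was 5.44, 5.84 and 3.55 in control libraries 1 to 3 and 5.74, 3.42 and 3.44 in CTX libraries 1 to 3, so these chains were not held at 1 ratio. Col6a2 divided by Col6a3 was 1.83, 2.14 and 1.76 in control libraries 1 to 3 and 1.92, 1.37 and 1.31 in CTX libraries 1 to 3. Scaled to the longest coding transcripts, the first ratio ran from 2.04 to 3.49 and the second from 1.98 to 3.23. Col6a1 and Col6a2 share chromosome 10 and the minus strand, but their starts are 102537 bases apart.

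The 3 alternative chains are neighbours on chromosome 9, on the minus strand, and did not share 1 pattern over the libraries. Col6a4, the most abundant, had 23.1, 15.4 and 37.7 RPKM in control libraries 1 to 3 and 15.2, 40.6 and 38.3 in CTX libraries 1 to 3, divided like Col6a3 (log2 fold change 0.26 ± 0.46). Col6a6 had 4.84, 5.7 and 2.73 RPKM in control libraries 1 to 3 and 3, 2.16 and 2.03 in CTX libraries 1 to 3. Control 3 lay below CTX 1, and its log2 fold change was −0.64 ± 0.25 with an adjusted limma p-value of 1.000. Col6a5, at chromosome 9 (105856078 to 105960643, minus strand), had 3.61, 3.3 and 2.84 RPKM in control libraries 1 to 3 and 0.94, 1.49 and 1.39 in CTX libraries 1 to 3. All CTX libraries lay below all controls, with means of 3.25 ± 0.387 RPKM in control and 1.27 ± 0.293 in CTX, so the control level was 2.55 times that in CTX. Its log2 fold change was −0.91 ± 0.16, rank 13 of 14535 genes by limma p (unadjusted 0.00109, adjusted 0.959). Its levels were so low that the pseudocount of 1 shrank the fitted change, which was −1.30 with a pseudocount of 0.1.

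Fibril-associated collagens coat fibrils and carry interrupted helices. Col20a1, a little-studied member of this group on chromosome 2 (180986535 to 181018363, plus strand), had 7.28, 6.9 and 7.17 RPKM in control libraries 1 to 3 and 4.59, 4.94 and 4.48 in CTX libraries 1 to 3. CTX libraries lay between 4.48 and 4.94, controls between 6.9 and 7.28, so CTX 1 stood with CTX 2 and 3 here, and control 3 with controls 1 and 2. Means were 7.12 ± 0.196 RPKM in control and 4.67 ± 0.240 in CTX, a control level 1.52 times that in CTX. The log2 fold change was −0.52 ± 0.11, rank 34 of 14535 genes by limma p (unadjusted 0.00237, adjusted 1.000), so it did not pass. A gene annotated on the same strand, 9230112E08Rik, overlaps the start of Col20a1 and shares 79 of its 5142 exonic bases. It had 6.58, 5.49 and 5.4 RPKM in control libraries 1 to 3 and 3.55, 4.86 and 4.94 in CTX libraries 1 to 3, again with all CTX libraries below all controls. Whether some reads of one belong to the other was not tested.

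Col9a2, a type IX chain that decorates cartilage fibrils, had the largest standard error of a fitted difference among the collagens. It had 11.95, 6.78 and 21.4 RPKM in control libraries 1 to 3 and 8.91, 40.9 and 45.2 in CTX libraries 1 to 3. CTX 2 and 3 were high, but CTX 1 lay within the controls (log2 fold change 1.03 ± 0.67, adjusted limma p-value 1.000). Without CTX 1 the log2 fold change was 1.75 with an adjusted limma p-value of 0.208. Its usual partners were nearly absent: Col9a3 had 0.4 to 0.76 RPKM, Col9a1 was listed at 0 in 5 libraries and at 0.01 in CTX 2, and the cartilage fibril gene Col2a1 did not exceed 0.04. Col16a1 had 10.1, 9.11 and 16.4 RPKM in control libraries 1 to 3 and 10.4, 18.5 and 17.6 in CTX libraries 1 to 3, again high in control 3 and CTX 2 and 3 (0.36 ± 0.29). Col12a1 ranged from 1.8 to 3.75 RPKM and Col14a1 from 0.98 to 2.36, with control 3 and CTX 2 and 3 highest in the former and lowest in the latter.

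**Figure D5:**
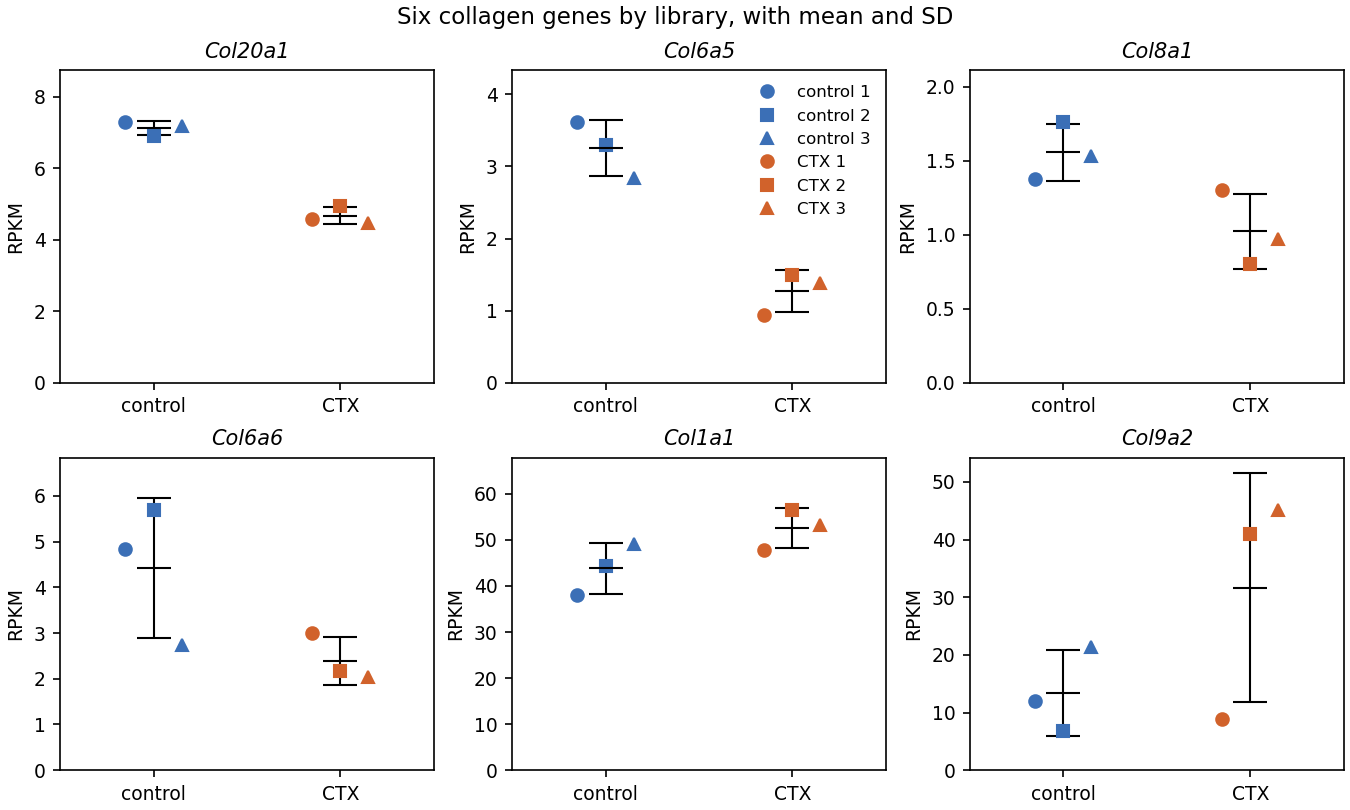
RPKM of Col20a1, Col6a5, Col8a1, Col6a6, Col1a1 and Col9a2 by library (marks), with the group mean and SD (n = 3). In the first 3 genes all CTX libraries lie below all controls. In Col9a2 CTX 1 lies among the controls while CTX 2 and 3 lie above 40 RPKM.

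Type XV and type XVIII collagens are multiplexins, proteoglycans of the basement membrane zone whose ends release anti-angiogenic fragments, and endostatin comes from type XVIII. Col18a1 had 21.4, 26.5 and 16.3 RPKM in control libraries 1 to 3 and 20.5, 17.1 and 17.1 in CTX libraries 1 to 3, and Col15a1 had 22.7, 20.6 and 17.1 RPKM in control libraries 1 to 3 and 19.3, 16.5 and 16.96 in CTX libraries 1 to 3. Both were lowest in control 3 and CTX 2 and 3, and their log2 fold changes were −0.20 ± 0.19 and −0.18 ± 0.14. Summed RPKM of 10 endothelial markers, all present in each library, were 160.4, 173 and 154 in control libraries 1 to 3 and 160.5, 131 and 124 in CTX libraries 1 to 3. Controls 1 and 2 and CTX 1 were highest in these markers too. The part of the endothelial markers in the multiplexin levels was not tested.

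Short-chain and membrane collagens were scarce. Col8a1, a short-chain collagen of vessel walls and of Descemet's membrane, had 1.38, 1.76 and 1.53 RPKM in control libraries 1 to 3 and 1.3, 0.8 and 0.97 in CTX libraries 1 to 3. All CTX libraries lay below all controls, though CTX 1 was only just under control 1 (log2 fold change −0.34 ± 0.16, adjusted limma p-value 1.000). Its partner Col8a2 had 1.13, 1.19 and 1.62 RPKM in control libraries 1 to 3 and 0.99, 2.29 and 2.3 in CTX libraries 1 to 3. There CTX 1 lay below all controls and CTX 2 and 3 above them (0.27 ± 0.24). The transmembrane collagen Col13a1 had 2.06, 1.93 and 1.77 RPKM in control libraries 1 to 3 and 1.96, 0.79 and 0.89 in CTX libraries 1 to 3. CTX 2 and 3 were low, and CTX 1 lay within the controls. Col26a1, first known from testis and ovary, had 1.04, 0.9 and 2.41 RPKM in control libraries 1 to 3 and 1.51, 3.15 and 3.15 in CTX libraries 1 to 3. The log2 fold change of 0.57 ± 0.31 had the smallest limma p of the positive ones after Col1a1, and CTX 1 again lay within the controls. Col23a1, a further transmembrane form, stayed between 0.59 and 1.19 RPKM. Col8a1, Col8a2, Col13a1, Col23a1, Col12a1 and Col14a1 fall outside the rule for named genes and were chosen after their values were seen, as were all members below the threshold.

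The 12 members below the threshold for testing comprised 3 fibrillar (Col2a1, Col11a2 and Col24a1) and 9 other collagens. The highest value among them was 1.44 RPKM, for Col11a2 in control 1. Another 4 of the 12 (Col2a1, Col9a1, Col10a1 and Col19a1) did not exceed 0.1 RPKM in any library. The anchoring fibril gene Col7a1 had 1.01, 1.03 and 0.93 RPKM in control libraries 1 to 3 and 0.92, 0.8 and 0.78 in CTX libraries 1 to 3, and Col22a1 had 0.35, 0.34 and 0.45 RPKM in control libraries 1 to 3 and 0.29, 0.26 and 0.24 in CTX libraries 1 to 3. In both, all CTX libraries lay below all controls, at levels of 0.24 to 1.03 RPKM. Col17a1, the hemidesmosomal collagen of epithelia, ranged from 0.09 to 0.29, Col24a1 from 0.29 to 0.56, Col25a1 from 0.08 to 0.31 and Col28a1 from 0.05 to 0.66 RPKM.

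Promoter windows of 300 bases (250 before to 50 after the start) were found in the RefSeq table for 35 of the 44 members. Searched on both strands, GGGCGG occurred in a window of 22 of the 35 (62.9%), where 38.2% of all 27025 genes in the table had it. CCAAT occurred in 13 (37.1%, against 41.1%), and TATAAA in 5 (14.3%, against 15.7%). Matches to different motifs can share bases, and all genes include non-coding ones. Among the type IV windows, those of Col4a1, Col4a2 and Col4a5 each held CCAAT and GGGCGG, that of Col4a6 held GGGCGG alone and that of Col4a4 held none of the 3 motifs. A match is a string of letters and not a shown binding site.

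Genes that make, process and bind collagen did not pass either. Of 67 listed genes 56 were tested, and 0 were called by limma in either direction (0% of all genes). At an unadjusted limma p under 0.05, Aspn alone was higher, where 1.16% of all genes were. None was lower, where 2.29% of all genes were. Chaperones and hydroxylases of the endoplasmic reticulum, which fold and modify procollagen, had 14 of 17 tested genes positive, where 48.8% of all genes tested were. The median of this list was 0.17, and after quantile normalization 13 of 17 were positive with a median of 0.15. Over the 56 tested partners of the 6 lists, all CTX libraries lay above all controls in 4 (3.32% of all genes), namely P4ha2, Serpinh1 and Fkbp10 of this list and Aspn, and below them in 3 (5.5% of all genes), namely Adamts14, Loxl1 and Itga11. Apart from Serpinh1, these were named after their values were seen. The most abundant chaperones and hydroxylases were Serpinh1 and P4hb. Serpinh1, the collagen chaperone HSP47, had 301, 331 and 293 RPKM in control libraries 1 to 3 and 380.3, 355 and 331 in CTX libraries 1 to 3. P4hb, a subunit of prolyl hydroxylase, had 231, 253 and 266 RPKM in control libraries 1 to 3 and 305, 279 and 263 in CTX libraries 1 to 3. In Serpinh1 the gap between groups was only from 330.52 in control 2 to 331.11 in CTX 3, and in P4hb the groups overlapped (log2 fold changes 0.20 ± 0.14 and 0.17 ± 0.14).

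Propeptide-processing genes had 2 of 4 positive (1 of 4 after quantile normalization). Pcolce, an enhancer of the C-proteinase, had 131, 136 and 86.5 RPKM in control libraries 1 to 3 and 199, 75.96 and 70.5 in CTX libraries 1 to 3, and the C-proteinase gene Bmp1 had 54.3 ± 5.15 RPKM in control and 56.7 ± 8.08 in CTX. Pcolce was high in controls 1 and 2 and CTX 1, as luteal markers were. Crosslinking enzymes had 2 of 5 positive, with 24.9 ± 1.18 RPKM in control and 28.8 ± 7.97 in CTX for Pxdn, the peroxidasin that crosslinks type IV collagen, and 25.5 ± 6.68 RPKM in control and 20.9 ± 0.379 in CTX for the lysyl oxidase Loxl2. The means of both differed by less than the larger group SD.

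Among fibril-binding proteoglycans and regulators 4 of 9 were positive, but 3 of 9 after quantile normalization and 6 of 9 without CTX 1. Sparc, a collagen-binding protein of the matrix, had 498, 589 and 297 RPKM in control libraries 1 to 3 and 683, 309 and 293 in CTX libraries 1 to 3, and the fibril-coating proteoglycan gene Dcn had 222, 139 and 273 RPKM in control libraries 1 to 3 and 108, 204 and 214 in CTX libraries 1 to 3. Sparc followed the luteal markers, while Dcn was lowest in CTX 1 and highest in control 3. Collagen receptors had 3 of 9 positive, with 153 ± 18.2 RPKM in control and 144 ± 16.8 in CTX for the integrin beta 1 gene Itgb1 and 15.7 ± 3.26 RPKM in control and 21.5 ± 8.12 in CTX for the receptor kinase Ddr1. Basement membrane partners of type IV collagen had 8 of 12 positive, but 3 of 12 without CTX 2 and 5 of 12 without control 2 or control 3, with 44.6 ± 3.89 RPKM in control and 46.2 ± 12.2 in CTX for the linker nidogen gene Nid1 and 48.5 ± 3.73 RPKM in control and 46.6 ± 3.10 in CTX for the laminin beta 2 gene Lamb2. In these lists no gene was called.

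Markers of the cells that make collagen also differed between libraries. Of 10 stromal fibroblast markers, 9 were tested and 5 were positive, and their summed RPKM ranged over 286 to 553 in control and 263 to 456 in CTX, with no marker at 0. Theca and interstitial markers summed to 894 to 1415 in control and 738 to 1712 in CTX, and smooth muscle and pericyte markers to 552 to 744 in control and 736 to 849 in CTX. In the smooth muscle list control 3 lay above CTX 1, so the groups overlapped. Of its 10 markers 5 were positive, among them Acta2 and Tagln, which had the highest levels. The other 5 were negative, namely Rgs5, Pdgfrb, Cspg4, Notch3 and Mcam. Stromal fibroblast and theca sums were highest in control 3 and CTX 2 and 3, as Col1a2, Col6a3, Col11a1 and Col16a1 were. Not every marker followed these sums. In the stromal list Ly6a was highest in CTX 1, and Dpt was lower in control 3 than in controls 1 and 2. In the theca list Insl3 was higher in CTX 1 than in control 3. Aldh1a1 made up most of the theca sum, with 883 RPKM in control 1 and 1366 in CTX 3. Dcn and Lum were the most abundant stromal markers, and both were higher in control 1 than in CTX 2 and 3. Mean log2 values over the tested markers of the stromal fibroblast and theca lists were also highest in control 3 and CTX 2 and 3. Those of the smooth muscle list were not, since CTX 1 (4.92) lay above control 3 (4.83). Other cell types were divided in the same way and more widely: 8 adipocyte markers summed to 22.5, 23.1 and 149 in control libraries 1 to 3 and 26.9, 205 and 191 in CTX libraries 1 to 3, and 10 oocyte markers to 164, 139.5 and 331 in control libraries 1 to 3 and 103, 378 and 369 in CTX libraries 1 to 3. Adipoq, Lep and Retn were listed at 0 in control 2, and Cidec in controls 1 and 2. Summed RPKM of 6 erythroid markers were 18.4, 27.2 and 22.8 in control libraries 1 to 3 and 21.8, 75.5 and 66.5 in CTX libraries 1 to 3, so CTX 2 and 3 stood apart there, the libraries in which Col9a2 was also highest. Of 10 surface epithelium and mesothelium markers, 5 had all CTX libraries below all controls (5.5% of all genes), as Col20a1, Col6a5 and Col8a1 did, and the list summed to 108, 94.4 and 127 in control libraries 1 to 3 and 66.2, 102 and 101 in CTX libraries 1 to 3, with no marker at 0. The part of these markers in the collagen levels was not tested.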

How the data were processed

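RNA of ovaries was sequenced by the authors in 6 libraries made from 1 µg of total RNA with an Illumina TruSeq kit, per the labels' protocols. They deposited 1 table per library of RPKM values over 46078 genes. The submitters' processing notes list Bowtie 0.12.2 and mm10, and the counter, annotation and strand use were not given there. No header states the unit, and RPKM was read from the values: in genes of at most 1000 exonic bases, 97.8 to 98.1% of values of at most 15 reads fell within 0.2 of a whole read at 1 step per library, which gave the depths. In genes whose merged exons are at least 1.3 times their longest transcript, merged exons gave whole reads in 89.3 to 95.7% of values and the longest transcript in 21.7 to 36.1%, so the authors' lengths were taken as merged exons. GENCODE M21 matched 45143 identifiers, and 30 damaged symbols were restored through them. Over the matched genes, the reads implied by the values summed to 1.192 to 1.203 times the estimated depth of a library. The reason was not tested.

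Groups were compared with limma 3.58.1 in R 4.3.3 on log2(RPKM + 1) with moderated variances and a mean-variance trend, for genes with RPKM of at least 1 in at least 3 libraries. The script was tested on simulated data. Its check required recovery only where the spread was set below that of these libraries. It therefore does not show which changes could be found here. Libraries shared at most 0.69% identical values among genes at RPKM 1 or more in all, so none was treated as a duplicate. Named genes were all tested fibrillar and type IV chains, the 10 most abundant other collagens, the 2 smallest p in each direction and the 2 most abundant genes of each partner list. The members and lists were chosen with earlier results of these data known. A fold change on the log2(RPKM + 1) scale understates that of low genes. Since values were rounded to 2 decimals, read counts of long genes cannot be recovered, and intervals of counting error were left out.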

Additional observations from a re-analysis of the deposited data

How the results depend on the processing

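No collagen or partner gene was called under any alternative run: trimmed-mean scaling, quantile normalization, pseudocounts of 0.1 and 0.5, no variance trend, no filter, a filter at mean RPKM 5, the replicate number as a block, and each library left out in turn. Over all genes the number of calls was 0 except for 5 without CTX 1, so it ran from 0 to 5 over the libraries left out. The smallest adjusted limma p of a collagen over these alternatives was 0.141, for Col6a5 without CTX 1, against 0.959 with all libraries. Collagens with all CTX libraries above all controls numbered 1 of 32 after trimmed-mean scaling (4.15% of all genes) and 0 to 15 with a library left out. Those below numbered 5 of 44 without a filter (4.7% of all genes), 1 of 20 at a mean RPKM of at least 5 (4.83%), and 3 to 8 with a library left out. The log2 fold change of Col6a5 stayed between −0.98 and −0.80 and that of Col20a1 between −0.55 and −0.49 with a library left out. The median log2 fold change crossed 0 with a library left out for all collagens (−0.12 to 0.20), basement membrane collagens (−0.13 to 0.15) and the others (−0.11 to 0.05), but not for fibrillar ones (0.05 to 0.23). The ratio of summed RPKM, CTX over control, then ran from 1.095 to 1.245 for fibrillar, 0.859 to 0.948 for basement membrane and 0.945 to 1.16 for other collagens. The most abundant members weigh most in these sums, for basement membranes Col4a1 and Col4a2, and the ratios were not tested. Of 38 named genes 13 changed sign without some library, none of them called, and the cause was not tested: Col5a2 −0.073 to 0.020, Col6a2 −0.13 to 0.39, Nid1 −0.11 to 0.25, Col4a3 −0.12 to 0.43, Col4a6 −0.13 to 0.63, Col27a1 −0.17 to 0.21, Col3a1 −0.031 to 0.088, Col6a4 −0.035 to 0.70, Sparc −0.56 to 0.051, Col4a4 −0.17 to 0.32, Dcn −0.55 to 0.037, Pcolce −0.65 to 0.091, Bmp1 −0.035 to 0.17. Another 19, 14 of them collagens, kept their sign but moved by over 1.5 times without some library. Among them Col11a1 ran from 0.13 to 0.97, Col6a3 from 0.12 to 0.87, Col18a1 from −0.37 to −0.04, Col4a5 from −0.37 to −0.01 and Col9a2 from 0.64 to 1.75. After quantile normalization 4 changed sign: Col4a4 0.022, Col27a1 0.0087, Col3a1 −0.024, Bmp1 −0.0064. Replicate numbers are shared between groups. Same-numbered libraries deviated together in pairs 1 and 3 (correlations 0.401 and 0.598) and against each other in pair 2 (−0.54). Some libraries of unlike number also deviated together, such as control 2 with CTX 1 (0.614) and control 3 with CTX 2 (0.596). These correlations cannot show whether same-numbered samples were collected or prepared together. With the replicate block there were 0 calls, 0 of them collagens, and the median log2 fold change of all collagens was 0.011. Rounding to 2 decimals leaves members near 0.01 RPKM without usable precision.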
